A study of Homo sapiens with 10 samples.

Results

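The cadherin and protocadherin genes were followed over all 5 groups of the study. They were taken by symbol: every CDH gene with a number, every PCDH gene with a number, and the genes of the alpha (PCDHA), beta (PCDHB) and gamma (PCDHG) protocadherin clusters. The rule found 87 of the 46427 genes in the count table. Of these, 34 were unclustered (23 CDH and 11 PCDH genes) and 53 were clustered (15 alpha, 16 beta and 22 gamma genes).

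The study asked what short-chain phthalates do to neurospheres grown from ReNcell VM cells, a line of immortalised human neural progenitors. The groups were DEP, DProP, DPP and Mix, each labelled 100 µM, and a vehicle of 0.1% DMSO. Every group was kept for 6 days in differentiation medium on laminin and had 2 libraries, each from 6 pooled neurospheres. DEP and DProP are the usual short names of diethyl phthalate and di-n-propyl phthalate; DPP is given here as labelled, and the sources used here do not say what Mix was made of. All groups come from 1 cell line, and nothing in the labels tells whether both libraries of a group stem from different cultures; p-values below thus reflect only how far these libraries scatter, which may be technical.

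Cadherins are calcium-dependent adhesion proteins that hold neighbouring cells together. The classical ones bind each other outside the cell and catenins inside it; CDH2 (N-cadherin) is the form that neural progenitors use in their apical junctions. The unclustered protocadherins, most of them of the delta group, act in cell sorting, axon growth and synapse formation. The clustered protocadherins lie side by side, are chosen promoter by promoter, and give each neuron a surface code that serves self-avoidance. In the alpha and gamma clusters each variable first exon is spliced to constant exons shared by the cluster, whereas each beta gene is its own exon.

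Positions on chromosome 5 of GRCh38 ran from 140786140 to 141012347 for the alpha cluster, from 141051374 to 141249365 for the beta cluster and from 141330514 to 141512975 for the gamma cluster. In the GENCODE v29 annotation the alpha genes shared a median of 46.5% of their exon bases with other members and the gamma genes 43.8%, against 0 for the beta and unclustered genes. Of all 75-base windows in a gene's exons, a median of 8.9% recurred in another member for the beta genes, up to 34.5%. The sources used here do not say how reads from shared sequence were counted, so values of single alpha and gamma genes, and in part of beta genes, are uncertain.

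Promoters of many, not all, clustered protocadherins are known for a conserved element with the core CGCT, which the architectural protein CTCF binds. The 250 bases before a start are shown, from RefSeq on GRCh38.p14, for PCDHGC3, the member with the highest level, for its neighbour PCDHGC4, which was higher in DProP, and for PCDHGA3 and PCDHB2, which were higher in Mix. Capitals mark CGCT on the printed strand or its reverse complement AGCG, whether or not it lies in that element. These bases alone do not identify the element, since 64.83% of all promoters hold them. The sequences shown are all on the plus strand of chromosome 5. They lie at chr5:141475716-141475965 (PCDHGC3), chr5:141484780-141485029 (PCDHGC4, for 1 of its 2 listed starts), chr5:141343579-141343828 (PCDHGA3) and chr5:141094365-141094614 (PCDHB2).
PCDHGC3: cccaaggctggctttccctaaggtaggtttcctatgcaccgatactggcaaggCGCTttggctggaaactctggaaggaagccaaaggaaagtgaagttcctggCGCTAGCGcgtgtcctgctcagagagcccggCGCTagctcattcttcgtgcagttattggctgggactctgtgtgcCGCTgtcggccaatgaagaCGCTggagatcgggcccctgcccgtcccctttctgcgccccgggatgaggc
PCDHGC4: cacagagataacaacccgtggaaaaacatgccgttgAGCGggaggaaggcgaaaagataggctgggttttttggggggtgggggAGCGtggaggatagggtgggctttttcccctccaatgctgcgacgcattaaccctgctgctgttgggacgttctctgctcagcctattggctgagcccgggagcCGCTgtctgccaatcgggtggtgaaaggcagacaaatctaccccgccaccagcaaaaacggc
PCDHGA3: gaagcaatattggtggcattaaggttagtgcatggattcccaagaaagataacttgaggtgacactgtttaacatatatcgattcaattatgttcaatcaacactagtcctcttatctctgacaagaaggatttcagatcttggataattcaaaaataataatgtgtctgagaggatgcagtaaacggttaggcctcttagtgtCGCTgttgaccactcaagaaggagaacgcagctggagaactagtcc
PCDHB2: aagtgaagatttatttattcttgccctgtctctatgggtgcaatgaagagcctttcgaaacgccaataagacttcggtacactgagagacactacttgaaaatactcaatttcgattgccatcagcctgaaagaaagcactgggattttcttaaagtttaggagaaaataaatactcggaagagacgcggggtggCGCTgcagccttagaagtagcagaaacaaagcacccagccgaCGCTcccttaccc
The counts of CGCT on either strand were 6 before PCDHGC3, 3 before PCDHGC4, 1 before PCDHGA3 and 2 before PCDHB2.

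RefSeq promoters of this length were matched for 68 of the 87 members, 85 promoters in all. CGCT on either strand was in 25 of 25 gamma, 13 of 14 beta, 12 of 13 alpha and 28 of 33 unclustered promoters, and in 64.83% of all 35116 promoters. A longer form, GNCGCTGT, was in 19 of 25 gamma and 5 of 13 alpha promoters, in 1 of 14 beta and in 0 of 33 unclustered ones, against 3.34% of all promoters. The form GGCGCTGC was in 10 of 14 beta promoters, 0 of 25 gamma, 0 of 13 alpha and 1 of 33 unclustered ones, against 3.47% of all. Both longer forms contain CGCT and were chosen after these promoters had been read, on both strands, so their shares are descriptions.

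The libraries held 57222381 to 72973100 counts. Replicates differed by more than sampling noise in every group. All treatments were compared with the same pair of vehicle libraries, which stood apart from the 8 treated ones: without scaling factors the median log2 fold change of all genes against vehicle shifted by 0.157 in DEP, 0.176 in DProP, 0.158 in DPP and 0.142 in Mix, and fold changes against vehicle correlated with GC content across genes (Spearman's rho from -0.322 to -0.262). Levels are given as CPM, counts relative to the library's total after TMM scaling, and differences as log2 fold changes with their standard error (SE) and a p-value from edgeR's quasi-likelihood test, adjusted by Benjamini and Hochberg over the 19465 genes tested; a gene is called when this is under 0.05. Each call was repeated under up to 18 alternatives, and a call is said to hold in every alternative when it held in all that tested the gene.

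Markers of cell types also differed between treated and vehicle libraries. The summed level of 10 neuron markers was 1412 to 1552 CPM in DEP, 1268 to 1320 in DProP, 1113 to 1218 in DPP and 1742 to 1766 in Mix, against 2124 to 2187 CPM in vehicle, and none was at 0. The summed level of 7 progenitor markers was 4652 to 4679 CPM in DEP, 4325 to 4522 in DProP, 4556 to 4731 in DPP and 4490 to 4752 in Mix, against 7348 to 7422 CPM in vehicle. For 6 astrocyte markers it was 4918 to 5189 CPM in DEP, 4696 to 4715 in DProP, 4618 to 5123 in DPP and 4962 to 5330 in Mix, against 8898 to 9098 CPM in vehicle. These sums weigh abundant markers most. Of the neuron markers, 5 were called lower in DEP, 7 in DProP, 7 in DPP and 4 in Mix. Called higher were 0, 1, 1 and 1. Of all genes, 13.5%, 17.5%, 19.5% and 10.7% were called lower. Progenitor markers called lower were 7, 7, 7 and 6, and astrocyte markers 5, 5, 5 and 3. The neuron marker NEFL was above vehicle in both DProP and both DPP libraries. The neurospheres therefore carried neural markers in every group, at lower sums after treatment, though not every marker was lower. The part of this in the results on cadherins was not tested. In pooled neurospheres, fewer cells of a type and less RNA per cell cannot be told apart.

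Of the 87 members, 76 had enough counts to be tested, 24 unclustered and 52 clustered. The 11 others were CDH8, CDH9, CDH12, CDH13, CDH16, CDH17, CDH18, CDH19, CDH20, PCDH12 and PCDHB1, none with more than 26 counts in a library and 4 of them (CDH9, CDH12, CDH18 and CDH19) with 0 in all 10. Per kilobase of the longest annotated transcript, the highest mean level over the 10 libraries was that of PCDHGC3 with 281 CPM per kb, before CDH2 with 131, PCDH8 with 75.3, PCDH10 with 55.2 and PCDH18 with 50.55 CPM per kb. The next were PCDH17 with 16.5 and PCDHGC5 with 15.5 CPM per kb. Epithelial CDH1 averaged 0.0191 CPM per kb. The RNA was sequenced after exome capture, and how evenly capture covered these transcripts is not given here, so the order of genes is uncertain. The value of PCDHGC3 also depends on where reads of the shared constant exons were counted. All members together held 0.402% to 0.431% of the counts of treated libraries, against 0.449% and 0.461% in vehicle.

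Against vehicle, unclustered members were called in both directions and most clustered members were not called, which does not show that they were unchanged. In DEP 10 of 24 unclustered members were called (3 higher, 7 lower), against 23.6% of all genes tested (10.1% higher, 13.5% lower). In DProP it was 11 (5 higher, 6 lower), against 32.2% of all genes (14.7% higher, 17.5% lower). In DPP it was 16 (7 higher, 9 lower), against 36.2% (16.7% higher, 19.5% lower), and in Mix 8 (4 higher, 4 lower), against 20.4% (9.71% higher, 10.7% lower). As a share of the 24 these are 41.7%, 45.8%, 66.7% and 33.3%, above the share of all genes in each. Of 52 clustered members, 5 were called in DEP (all lower), 5 in DProP (4 higher, 1 lower), 8 in DPP (all lower) and 4 in Mix (3 higher, 1 lower), which is 9.62%, 9.62%, 15.4% and 7.69% of them, below the share of all genes in each. These counts cover only members with enough counts to be tested, and a member that passed this filter only through the group in which it was high had to differ. In each called comparison the 2 treated libraries lay on the same side of both vehicle libraries. This adds no support to the calls, since the test favours such genes. Members not called could lie so too, such as PCDH17 and CDH26 in Mix, and the share of all genes that do is not given here.

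The split of the counts into higher and lower depends on the scaling, since library size alone in place of TMM moves all genes up against vehicle by the shift given above. With it, unclustered calls were 6 higher and 3 lower in DEP, 8 and 3 in DProP, 8 and 7 in DPP and 7 and 1 in Mix, and clustered calls were 2 higher and 2 lower in DEP, 14 and 1 in DProP, 2 and 3 in DPP and 12 and 1 in Mix. Relative to the median of all genes tested, the median log2 fold change of the clustered members was -0.15 in DEP, 0.09 in DProP, -0.19 in DPP and 0.16 in Mix, and that of the unclustered members was -0.19 in DEP, -0.12 in DProP, -0.16 in DPP and -0.07 in Mix. These relative medians differed by at most 0.001 between TMM and library size alone.

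Single libraries moved the counts as well. In DEP, 5 members were called without DEP replicate 1 or 2 and 8 without vehicle replicate 1, beside 15 with all libraries; in DPP, 14 without DPP replicate 2, beside 24; and in Mix, 4 without Mix replicate 1 and 8 without vehicle replicate 2, beside 12. Some omissions raised the count, up to 19 in DProP, beside 16, and up to 14 in Mix.

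**Figure D1:**
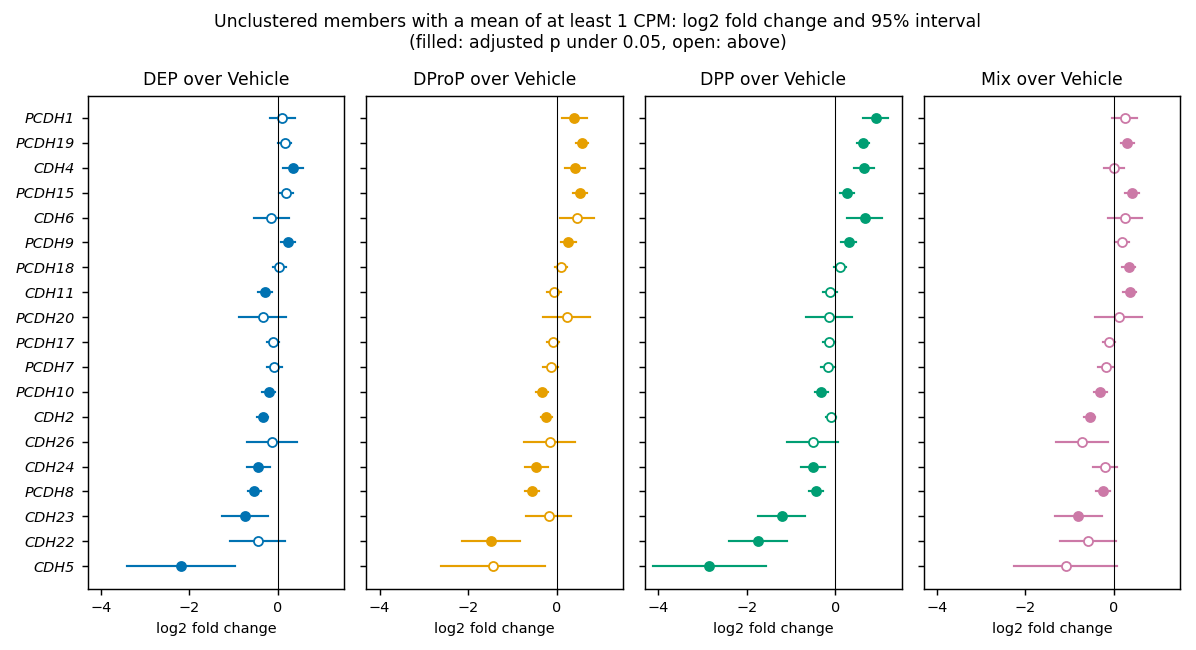
Log2 fold change of each treatment over vehicle (x axis) for the 19 unclustered members with a mean of at least 1 CPM (y axis), with 95% intervals, filled where called. PCDH1, PCDH19, CDH4 and PCDH15 sit to the right and CDH5, CDH22 and PCDH8 to the left, and CDH11 and CDH4 change place between treatments.

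Among the classical cadherins of type I, CDH2 fell in DEP, DProP and Mix, and CDH4 (R-cadherin, a close relative of CDH2 in retina and brain) was higher in the 3 single compounds. CDH2, at chr18:27932879-28177130, had 536 and 513 CPM in DEP, 565 and 571 in DProP, 602 and 644 in DPP and 454 and 457 in Mix, against 672 and 662 CPM in vehicle. Every treated library was below both vehicle libraries, with Mix lowest and DPP nearest to vehicle. The log2 fold change was -0.35 (SE 0.055, adjusted p = 0.00126) in DEP, -0.23 (SE 0.055, adjusted p = 0.00773) in DProP and -0.55 (SE 0.055, adjusted p = 6.32e-05) in Mix. In DPP it was -0.10 and not called. The DEP and Mix calls held in every alternative, while the DProP value was -0.22 and not called without DProP replicate 1, and -0.06 and not called with library size alone.

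CDH4, at chr20:61252261-61940617, had 58.5 and 66.0 CPM in DEP, 67.4 and 64.9 in DProP, 71.0 and 84.1 in DPP and 44.95 and 54.0 in Mix, against 48.4 and 50.4 CPM in vehicle. The libraries of the single compounds were all above vehicle, and those of Mix lay on either side of it. Log2 fold changes were 0.33 (SE 0.10, adjusted p = 0.0341) in DEP, 0.42 (SE 0.10, adjusted p = 0.00884) in DProP and 0.65 (SE 0.10, adjusted p = 0.000546) in DPP, and 0.00 in Mix. The DPP call held in every alternative. The DEP call was lost when either DEP library or either vehicle library was left out (0.24 to 0.42), and the DProP call without vehicle replicate 1 (0.39).

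CDH11, a type II cadherin of mesenchymal and neural cells at chr16:64943753-65123744, moved in opposite directions in DEP and Mix. It had 42.5 and 40.1 CPM in DEP, 48.1 and 48.5 in DProP, 44.9 and 47.7 in DPP and 65.8 and 62.4 in Mix, against 53.0 and 47.5 CPM in vehicle. Both Mix libraries were above all 8 others and both DEP libraries below them. Its log2 fold change was -0.28 (SE 0.07, adjusted p = 0.0146) in DEP and 0.35 (SE 0.07, adjusted p = 0.0056) in Mix. The DEP call ended without DEP replicate 2 (-0.24) or vehicle replicate 1 (-0.20), and with library size alone (-0.13); the Mix call ended without Mix replicate 1 (0.31). The 7 mesenchymal or smooth muscle markers summed to 93.4 to 98.9 CPM in DEP, 81.4 to 85.1 in DProP, 73.4 to 83.9 in DPP and 71.9 to 88.8 in Mix, against 172 to 173 CPM in vehicle; their part in this was not tested.

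**Figure D2:**
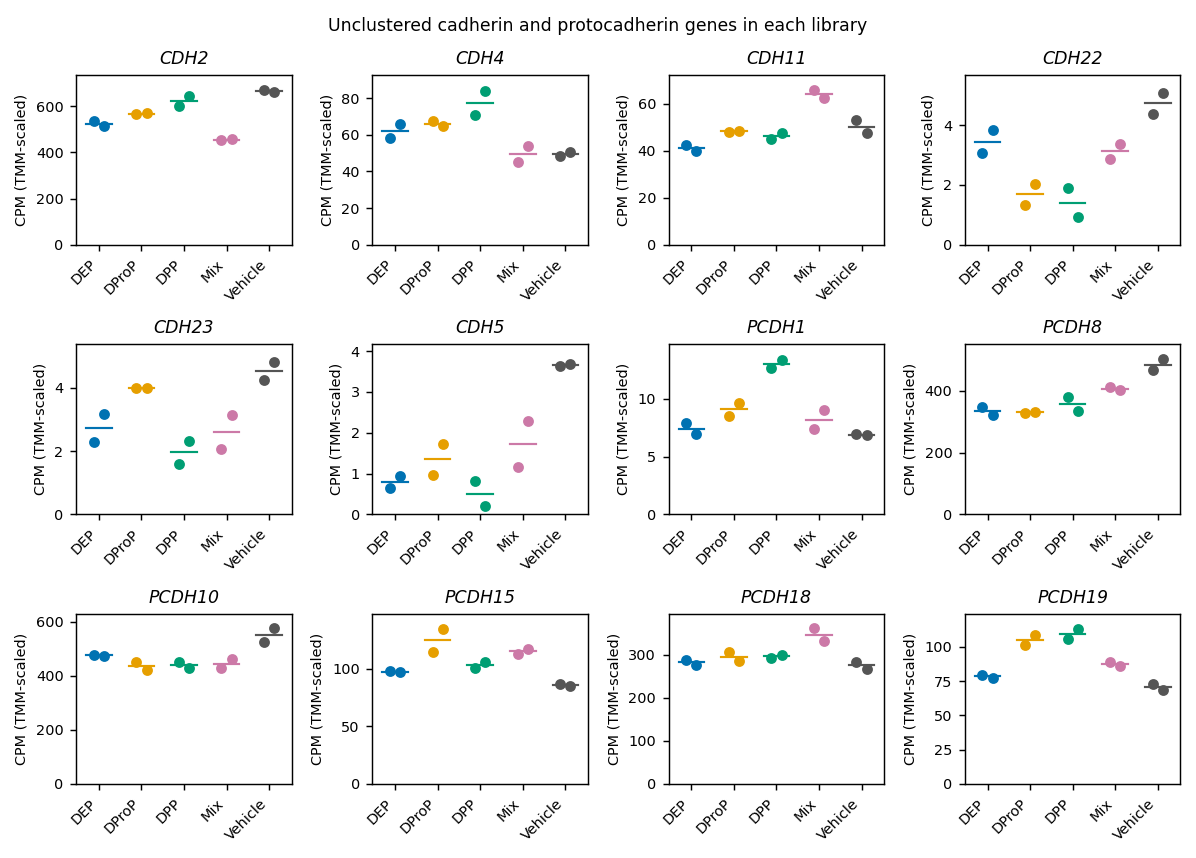
CPM after TMM scaling (y axis, from 0) of 12 unclustered members in each library, by group (x axis); points are libraries and lines group means. CDH2 is lowest in Mix with 454 and 457 CPM, CDH11 is highest there with 65.8 and 62.4 CPM, and PCDH19 is highest in DProP and DPP.

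Several cadherins of low level were lower after DPP. CDH22, a type II cadherin of brain, had 3.07 and 3.82 CPM in DEP, 1.33 and 2.04 in DProP, 1.88 and 0.924 in DPP and 2.88 and 3.38 in Mix, against 4.38 and 5.06 CPM in vehicle. All treated libraries were below vehicle, with DProP and DPP below DEP and Mix. Log2 fold changes against vehicle were -1.48 (SE 0.30, adjusted p = 0.00339) in DProP and -1.74 (SE 0.30, adjusted p = 0.00107) in DPP, and both calls held in every alternative; in DEP and Mix it was -0.45 and -0.59, not called.

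CDH23, the tip-link cadherin of hair cells, had 2.29 and 3.17 CPM in DEP, 4.00 and 4.00 in DProP, 1.60 and 2.32 in DPP and 2.07 and 3.14 in Mix, against 4.26 and 4.83 CPM in vehicle. Its log2 fold change was -1.21 (SE 0.24, adjusted p = 0.00245) in DPP, in every alternative a call. In DEP it was -0.73 (SE 0.24, adjusted p = 0.0436) and in Mix -0.80 (SE 0.24, adjusted p = 0.0345). With library size alone (-0.58 and -0.66) and with the correction for GC content and length (-0.54 and -0.67) neither of these was called. They were also lost without any 1 of the DEP (-0.52 and -0.99), DProP (-0.73 each) or vehicle libraries (-0.82 and -0.64) in DEP, and without Mix replicate 1 (-0.53) or either vehicle library (-0.89 and -0.71) in Mix. An antisense annotation covers 18.9% of CDH23's exon bases, and the sources used here do not say whether counting used strand.

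CDH5 (VE-cadherin, of endothelial junctions) had 0.656 and 0.948 CPM in DEP, 0.962 and 1.74 in DProP, 0.809 and 0.197 in DPP and 1.16 and 2.29 in Mix, against 3.65 and 3.69 CPM in vehicle. No treated library reached the vehicle level. On the log2 scale CDH5 differed from vehicle by -2.19 (SE 0.54, adjusted p = 0.0194) in DEP and -2.85 (SE 0.57, adjusted p = 0.0044) in DPP; it was -1.43 in DProP and -1.09 in Mix, not called. The DPP call held in every alternative, and the DEP call was lost without either DEP library (-1.95 and -2.48) or either vehicle library (-2.20 and -2.18). The 5 endothelial markers summed to 22.5 to 24.3 CPM in DEP, 11.2 to 12.8 in DProP, 7.06 to 14.7 in DPP and 25.0 to 26.3 in Mix, against 43.8 to 47.8 CPM in vehicle, nearly all of it CLDN5, and PECAM1 was at 0 in every library; their part in this was not tested.

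CDH1 (E-cadherin, of epithelial junctions) was barely present. It had 3 and 19 counts in DEP, 9 and 5 in DProP, 0 and 0 in DPP and 3 and 3 in Mix, against 12 and 7 counts in vehicle. CDH1 was called lower in DPP (adjusted p = 0.0176). The call was lost without either DPP library or without vehicle replicate 1. Its mean in vehicle, 0.157 CPM, was 7.2 times the level that 3 counts over the DPP group would give. This ratio takes the vehicle mean, from 12 and 7 counts, as exact, so it is not a lower bound on the fold change. The 5 epithelial markers summed to 1.29 to 1.54 CPM in DEP, 1.23 to 1.57 in DProP, 1.70 to 1.77 in DPP and 1.02 to 1.23 in Mix, against 1.02 to 1.33 CPM in vehicle, with KRT19 at 0 throughout and KRT18 at 0 in DEP.

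Among the other cadherins of low level, CDH10 (type II, of brain) was higher in DPP, with 1.45 and 1.32 CPM in DPP against 0.516 and 0.324 CPM in vehicle (log2 fold change 1.71, SE 0.31, adjusted p = 0.00123), in every alternative. Its DEP value was 0.93 (adjusted p = 0.0499) and was lost in 14 of 18 alternatives. In DProP and Mix the CDH10 values were 0.86 and 0.93, not called (adjusted p = 0.0554 and 0.0567). CDH6, of early neural tissue and kidney, had 14.2 and 20.7 CPM in DPP against 11.3 and 10.8 CPM in vehicle (log2 fold change 0.66, SE 0.17, adjusted p = 0.0131), a call lost without DPP replicate 2 (0.37) or vehicle replicate 1 (0.69) or 2 (0.63). CDH15 (M-cadherin, of muscle) had 0.153 and 0.242 CPM in DPP against 0.595 and 0.720 CPM in vehicle (log2 fold change -1.73, SE 0.47, adjusted p = 0.0141), a call lost without DPP replicate 1 (-1.43) or vehicle replicate 2 (-1.58). For DEP, DProP and Mix, CDH6 had -0.15, 0.46 and 0.25 and CDH15 -1.33, -0.91 and -0.56, none called. Between DPP and DProP, CDH10, CDH6 and CDH15 were not called.

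CDH7, a type II cadherin of brain and neural crest, had 0.186 and 0.287 CPM in DProP and 0.349 and 0.257 in DPP, against 0.673 and 0.576 CPM in vehicle. On the log2 scale CDH7 differed from vehicle by -1.38 (SE 0.38, adjusted p = 0.0166) in DProP and -1.04 (SE 0.37, adjusted p = 0.0465) in DPP. In DEP and Mix it was -0.77 and 0.59, not called. The DProP call was lost without DProP replicate 1 (-1.12) or vehicle replicate 1 (-1.26), with only the 2 groups compared (-1.38) or by DESeq2 (-1.39), and the DPP call in 14 of 17 alternatives. CDH24 had 12.7 and 12.7 CPM in DEP, 12.5 and 12.6 in DProP, 10.5 and 13.9 in DPP and 15.2 and 14.7 in Mix, against 16.5 and 18.0 CPM in vehicle. It was called lower in DEP (-0.44), DProP (-0.46) and DPP (-0.50), and all 3 calls were lost after a correction for GC content and length, with values of -0.16, -0.13 and -0.19. Library size alone ended the calls in DEP and DProP (-0.28 each), leaving out vehicle replicate 2 ended all 3 (-0.38, -0.39 and -0.44), and they were lost as well without either DEP library (-0.44 each), either DProP library (-0.45 and -0.47) or DPP replicate 1 (-0.31). CDH26, at 0.685 to 1.33 CPM in all libraries, was called in no comparison.

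Among the unclustered protocadherins, PCDH19, PCDH1, PCDH15 and PCDH9 were higher in 2 or 3 of the treatments and PCDH8 and PCDH10 lower in all 4. PCDH19, a delta protocadherin whose loss in humans causes an X-linked epilepsy, lies at chrX:100291644-100410273. It had 79.7 and 77.5 CPM in DEP, 101 and 108 in DProP, 105 and 113 in DPP and 88.9 and 85.8 in Mix, against 72.95 and 68.5 CPM in vehicle. All 8 treated libraries were above vehicle, and those of DProP and DPP were above those of DEP and Mix. PCDH19 rose on the log2 scale by 0.57 (SE 0.06, adjusted p = 8.58e-05) in DProP, 0.62 (SE 0.06, adjusted p = 2.81e-05) in DPP and 0.30 (SE 0.06, adjusted p = 0.00715) in Mix. In DEP it was 0.15, not called. The DProP and DPP calls held in every alternative, and the Mix call was lost without Mix replicate 1 (0.28).

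PCDH1, an adhesion protein of brain and airway epithelium at chr5:141853090-141878410, had 7.90 and 6.93 CPM in DEP, 8.55 and 9.69 in DProP, 12.7 and 13.3 in DPP and 7.38 and 9.05 in Mix, against 6.96 and 6.86 CPM in vehicle. The DPP libraries were above all others. The log2 fold change was 0.91 (SE 0.13, adjusted p = 0.000257) in DPP, called in every alternative. In DProP it was 0.40 (SE 0.13, adjusted p = 0.0337), lost without DProP replicate 2 (0.31) or vehicle replicate 1 (0.41) or 2 (0.39), and with only the 2 groups compared (0.40).

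PCDH15, which pairs with CDH23 in the tip links of hair cells, had 97.7 and 97.2 CPM in DEP, 115 and 135 in DProP, 101 and 106 in DPP and 113 and 117 in Mix, against 87.2 and 85.4 CPM in vehicle. Every treated library was above vehicle. PCDH15 rose on the log2 scale by 0.53 (SE 0.07, adjusted p = 0.000276) in DProP and 0.42 (SE 0.07, adjusted p = 0.00238) in Mix, both in every alternative. In DPP it was 0.26 (SE 0.07, adjusted p = 0.015), lost without DPP replicate 2 (0.23) or vehicle replicate 2 (0.25), and in DEP 0.17, not called. In every treated library PCDH15 was above, and CDH23 below, both vehicle libraries.

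PCDH9, a delta protocadherin of brain, had 87.1 and 82.3 CPM in DEP, 86.4 and 87.3 in DProP, 85.9 and 91.5 in DPP and 87.5 and 76.5 in Mix, against 74.2 and 70.0 CPM in vehicle. Its log2 fold changes were 0.23 in DEP, 0.27 in DProP and 0.30 in DPP (adjusted p = 0.0395, 0.0158 and 0.00794), and 0.19 in Mix, not called. These calls were lost without DPP replicate 2 (0.25) or vehicle replicate 2 (0.26) in DPP; without either DProP library (0.28 and 0.26) or vehicle replicate 2 (0.23), or with the correction for GC content and length (0.17), in DProP; and without either DEP (0.19 and 0.27), DProP (0.23 each) or vehicle library (0.27 and 0.19), or with no filter (0.22), in DEP. PCDH18, a delta protocadherin of brain, had 361 and 330 CPM in Mix against 283 and 267 CPM in vehicle (log2 fold change 0.33, SE 0.06, adjusted p = 0.00441), a call lost without Mix replicate 1 (0.26). In the single compounds it had 276 to 305 CPM and was not called.

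PCDH8 (arcadlin in rodents, an activity-regulated protocadherin of synapses), at chr13:52842889-52848640, and PCDH10 (OL-protocadherin, of axon guidance), at chr4:133149294-133208606, were the unclustered members that fell in all 4 treatments. PCDH8 had 349 and 323 CPM in DEP, 330 and 331 in DProP, 380 and 336 in DPP and 413 and 402 in Mix, against 468 and 502 CPM in vehicle. Every treated library was below vehicle. The log2 fold change was -0.53 in DEP, -0.55 in DProP and -0.44 in DPP (SE 0.07 each, adjusted p = 0.000377, 0.000158 and 0.000526), called in every alternative. In Mix it was -0.25 (SE 0.07, adjusted p = 0.0238), lost without Mix replicate 1 (-0.27), Mix replicate 2 (-0.23) or vehicle replicate 2 (-0.20), with library size alone (-0.11) and with the correction for GC content and length (-0.13).

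PCDH10 had 477 and 474 CPM in DEP, 451 and 422 in DProP, 450 and 429 in DPP and 427 and 461 in Mix, against 523 and 575 CPM in vehicle. The groups did not overlap with vehicle. PCDH10 log2 fold changes were -0.21 in DEP, -0.33 in DProP, -0.32 in DPP and -0.30 in Mix (SE 0.07 each, adjusted p = 0.0393, 0.00286, 0.00285 and 0.0078). With library size alone it was -0.05, -0.16, -0.16 and -0.16 and not called. The DEP call was also lost with the stricter filter (-0.17), the replicate block (-0.21) or only the 2 groups compared (-0.20), without either DEP library (-0.21 and -0.20) or vehicle replicate 2 (-0.14), and the Mix call without Mix replicate 1 (-0.25) or vehicle replicate 2 (-0.23). PCDH17, PCDH7 and PCDH20 were called in no comparison, at 127 to 146, 86.7 to 107 and 0.849 to 1.49 CPM; 95.8% of the exon bases of PCDH20 are also annotated to another gene on the same strand, so that its value is uncertain.

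Of the clustered protocadherins, PCDHGC3 was the member of highest level and fell in all 4 treatments. It is the variable exon of the gamma cluster that is expressed most widely, also outside neurons. It lies at chr5:141475966-141512975, a span that includes the shared constant exons. PCDHGC3 had 1192 and 1237 CPM in DEP, 1131 and 1207 in DProP, 1159 and 1075 in DPP and 1289 and 1335 in Mix, against 1757 and 1909 CPM in vehicle. The 8 treated libraries were all well below both vehicle libraries. PCDHGC3 log2 fold changes were -0.59 (SE 0.065, adjusted p = 0.000118) in DEP, -0.65 (SE 0.065, adjusted p = 3.43e-05) in DProP, -0.71 (SE 0.065, adjusted p = 1.27e-05) in DPP and -0.48 (SE 0.065, adjusted p = 0.000447) in Mix. These 4 calls held in every alternative, with library size alone included.

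The 2 genes next to it, PCDHGC4 and PCDHGC5, which are also of the C type, were called higher in DProP and in no other treatment. PCDHGC4 had 28.5 and 29.1 CPM in DEP, 34.0 and 33.1 in DProP, 28.0 and 27.5 in DPP and 25.7 and 27.9 in Mix, against 24.5 and 26.8 CPM in vehicle. The DProP libraries were above all others, with a log2 fold change of 0.39 (SE 0.08, adjusted p = 0.00263), called in every alternative. PCDHGC5 had 78.7 and 78.9 CPM in DEP, 83.6 and 80.0 in DProP, 67.6 and 79.8 in DPP and 63.6 and 68.9 in Mix, against 67.8 and 70.4 CPM in vehicle. Its DProP value of 0.24 (SE 0.08, adjusted p = 0.0334) was lost without either DEP library (0.24 each), either DProP library (0.21 and 0.27) or either vehicle library (0.22 and 0.27).

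The share of PCDHGC3 in all counts of gamma genes does not depend on scaling between libraries. It was 82.2% and 82.3% in DEP, 78.6% and 79.3% in DProP, 81.8% and 80.1% in DPP and 81.5% and 81.8% in Mix, against 85.3% and 87.3% in vehicle. All treated libraries were below both vehicle libraries. This is a share of counts as deposited; the sources used here do not say where reads of the constant exons were counted, so the share does not give a share of transcripts.

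**Figure D3:**
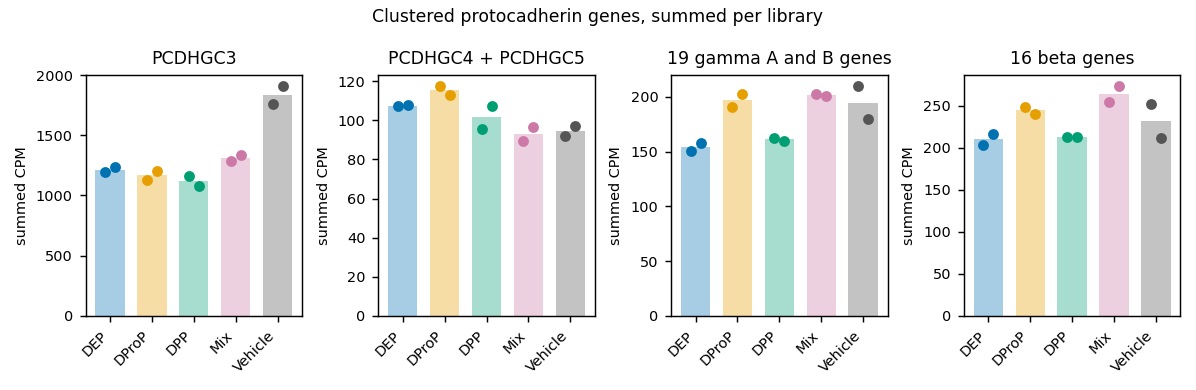
Summed CPM (y axis, from 0) in each group (x axis) of PCDHGC3, of PCDHGC4 with PCDHGC5, of the 19 gamma A and B genes and of the 16 beta genes; bars are group means and points libraries. PCDHGC3 has 1075 to 1335 CPM in treated libraries against 1757 and 1909 CPM in vehicle, whereas the vehicle libraries lie within or beside the treated ones for the other sums.

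The gamma A and B genes summed to 150 and 158 CPM in DEP, 191 and 203 in DProP, 162 and 160 in DPP and 202 and 201 in Mix, against 210 and 180 CPM in vehicle. The vehicle libraries differed from each other here by more than those of any treatment did, and the sums of DProP and Mix lay between them. DEP and DPP were below both. Of single genes, PCDHGB1 had 5.50 and 7.60 CPM in DEP, 9.14 and 7.92 in DProP, 6.05 and 6.89 in DPP and 10.5 and 8.48 in Mix, against 11.4 and 10.1 CPM in vehicle. Its log2 fold change was -0.73 (SE 0.17, adjusted p = 0.00547) in DPP, in every alternative, and -0.71 (SE 0.17, adjusted p = 0.0103) in DEP, lost without DEP replicate 1 (-0.50) or vehicle replicate 1 (-0.62).

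PCDHGA6 was called lower in DEP (log2 fold change -0.41, SE 0.11, adjusted p = 0.0214) and DPP (-0.48, SE 0.11, adjusted p = 0.00618), with 8.35 and 8.79 CPM in DEP and 8.11 and 8.22 in DPP, against 12.1 and 10.6 CPM in vehicle. The DEP call was lost without either DEP library (-0.37 and -0.45) or vehicle replicate 1 (-0.31), and with library size alone (-0.25), and the DPP call without vehicle replicate 1 (-0.38). PCDHGA4 was called lower in DEP (-0.38, adjusted p = 0.0358), a call lost without either DEP (-0.30 and -0.47) or vehicle library (-0.43 and -0.33), with library size alone (-0.23) and with the correction for GC content and length (-0.27). PCDHGA10 was called lower in DPP (-0.45, adjusted p = 0.0162), lost without DPP replicate 2 (-0.33) or vehicle replicate 1 (-0.42), with library size alone (-0.29), with that correction (-0.32) and with only the 2 groups compared (-0.45). PCDHGA3 had 5.96 and 5.53 CPM in DPP and 13.0 and 10.6 in Mix, against 6.56 and 9.53 CPM in vehicle, so that its vehicle libraries were far apart. It was called lower in DPP (-0.48, adjusted p = 0.0423) and higher in Mix (0.55, adjusted p = 0.036), and without vehicle replicate 2 the DPP value was -0.19, without vehicle replicate 1 the Mix value 0.30, and neither was called. The DPP call was lost without either DPP (-0.54 and -0.43) or DEP library (-0.48 each) too, with library size alone (-0.32), with the correction for GC content and length (-0.35), with the replicate block or with only the 2 groups compared (-0.48 each), and the Mix call without Mix replicate 1 (0.39) or either DEP library (0.55 each) and with only the 2 groups compared (0.54). PCDHGA7 was called lower in DEP (-0.42, adjusted p = 0.0207) and DPP (-0.35, adjusted p = 0.0314), lost in 4 and 5 of 18 alternatives. PCDHGA2 was called lower in DPP (-0.63, adjusted p = 0.0305), lost in 5 of 18. PCDHGB5 and PCDHGA9 were called higher in DProP. PCDHGA7, PCDHGA2, PCDHGB5 and PCDHGA9 were chosen after their values were seen. PCDHGB5 had 6.92 and 6.19 CPM in DProP against 4.96 and 3.69 CPM in vehicle (log2 fold change 0.60, SE 0.16, adjusted p = 0.0161), a call lost without DProP replicate 1 (0.51) or vehicle replicate 2 (0.40). PCDHGA9 had 10.3 and 11.5 CPM in DProP against 8.97 and 6.74 CPM in vehicle (0.47, SE 0.15, adjusted p = 0.0314), a call lost without DProP replicate 2 (0.39) or vehicle replicate 2 (0.28) and with only the 2 groups compared (0.48). PCDHGB7, the gamma B gene of highest level, had 24.8 to 41.3 CPM and was called in no comparison.

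**Figure D4:**
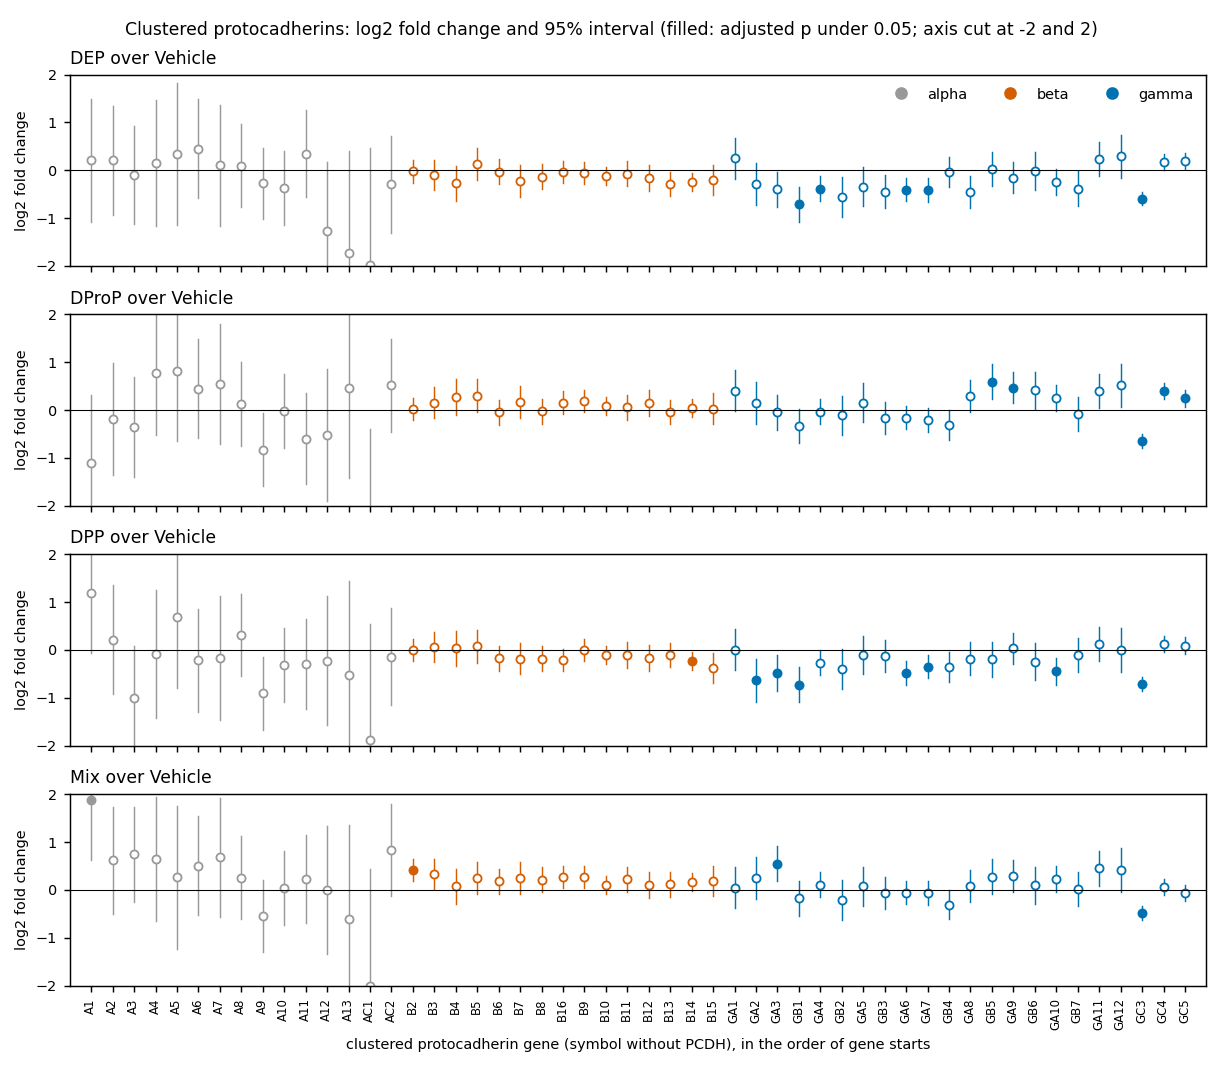
Log2 fold change over vehicle (y axis) with 95% intervals for the 52 tested clustered members in the order of their gene starts (x axis), 1 panel per treatment, filled where called. PCDHGC3 is filled and below 0 in all 4 panels (-0.71 to -0.48), the alpha genes have intervals wider than those of the beta and gamma genes, and most points are open.

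Few beta genes were called against vehicle. They summed to 203 and 217 CPM in DEP, 249.1 and 240.3 in DProP, 213 and 213 in DPP and 255 and 274 in Mix, against 252 and 211 CPM in vehicle; only the Mix libraries were above both vehicle libraries. PCDHB2 was higher in Mix, with 12.3 and 13.4 CPM against 10.1 and 9.13 CPM in vehicle (log2 fold change 0.42, SE 0.11, adjusted p = 0.0172), a call lost without Mix replicate 2 or vehicle replicate 2 (0.35 each). PCDHB14 was called lower in DPP (-0.24, adjusted p = 0.0491), a call that ended in 16 of 18 alternatives, among them library size alone (-0.08) and leaving out vehicle replicate 1 (-0.13). PCDHB10, PCDHB13, PCDHB15 and PCDHB16 were called in no comparison with vehicle. All 15 tested beta genes had a positive log2 fold change in Mix, with a median of 0.21, and 1 was called. The median over all genes tested was 0.017, and the share of all genes with a positive value is not given here. The beta genes share sequence and were set against the same pair of vehicle libraries, so their signs are not independent.

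The alpha genes were near the limit of detection. Together they had 8.53 and 9.97 CPM in DEP, 11.02 and 8.21 in DProP, 10.2 and 8.34 in DPP and 13.4 and 13.4 in Mix, against 10.5 and 11.4 CPM in vehicle. PCDHA1 was called higher in Mix, with 2.18 and 4.14 CPM against 1.22 and 0.486 CPM in vehicle (log2 fold change 1.87, SE 0.55, adjusted p = 0.0424), and the call ended in 11 of 18 alternatives, among them leaving out either Mix library (2.26 and 1.34) or vehicle replicate 2 (1.37). PCDHA4, PCDHA9 and PCDHA10 were not called, at 0.614 to 2.93 CPM.

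Treatments were also compared with one another at the same labelled concentration, in 6 comparisons that do not use the vehicle libraries as a group. DProP and DEP differ by the length of the alkyl chains. PCDH19 was the member called between them, higher in DProP by 0.42 (SE 0.06, adjusted p = 0.0182), against 0.524% of all genes called (0.39% higher, 0.134% lower). By unadjusted p under 0.05 in the same test it was 8 unclustered and 19 clustered members. The share of all genes at that unadjusted threshold is not given here, so these counts cannot be set against the 0.524%. The call was lost without either DEP library (0.44 and 0.40) or DProP replicate 2 (0.36). For CDH2 the difference was 0.12 (95% interval 0.00 to 0.23) and for PCDHGC3 -0.06 (-0.20 to 0.09), neither called. Between DPP and DProP, PCDHGA10 was called, with 5.52 and 4.66 CPM in DPP against 8.22 and 8.33 CPM in DProP (log2 fold change -0.70, SE 0.13, adjusted p = 0.0497), against 0.262% of all genes (0.144% higher, 0.118% lower); this ended in 11 of 18 alternatives, among them leaving out any 1 library other than DPP replicate 1 (-0.71 to -0.58). The interval between DPP and DProP was -0.08 to 0.20 for PCDH19 and 0.23 to 0.79 for PCDH1, the second with an adjusted p of 0.13.

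Between DPP and DEP, 5 members were called, all unclustered, against 2.93% of all genes (1.36% higher, 1.58% lower). PCDH19 was higher in DPP by 0.47 (SE 0.06, adjusted p = 0.00246), PCDH1 by 0.81 (SE 0.13, adjusted p = 0.00622), CDH6 by 0.81 (SE 0.17, adjusted p = 0.0342) and CDH2 by 0.25 (SE 0.055, adjusted p = 0.0335), and CDH22 was lower (log2 fold change -1.29, SE 0.30, adjusted p = 0.0445). Without DEP replicate 2 the count was 0 (0.45 for PCDH19, 0.72 for PCDH1, 0.84 for CDH6, 0.22 for CDH2 and -1.12 for CDH22), without DEP replicate 1 it was 2, without DPP replicate 2 it was 1 and without either vehicle library it was 3. With the replicate block it was 2. Clustered members had a median difference of -0.01, with 0 of 52 called by edgeR's quasi-likelihood test, 0 at an unadjusted p under 0.05 and 0 by DESeq2. For the unadjusted threshold the share of all genes is not given here.

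Mix differed from all 3 single compounds in CDH11, from DProP and DPP in CDH2, CDH4 and PCDH19, and in several clustered genes. Against DPP, 21 members were called, 8 of 24 unclustered (4 higher, 4 lower) and 13 of 52 clustered (all higher), where 17.3% of all genes were called, 10.4% higher and 6.82% lower. Mix was higher in CDH11 (0.47, SE 0.07, adjusted p = 0.00108), CDH7 (1.63, SE 0.36, adjusted p = 0.0102), CDH22 (1.15, SE 0.30, adjusted p = 0.0229) and PCDH18 (0.23, SE 0.06, adjusted p = 0.03), and lower in CDH2 (-0.45, SE 0.055, adjusted p = 0.000273), CDH4 (-0.65, SE 0.10, adjusted p = 0.00145), PCDH19 (-0.32, SE 0.06, adjusted p = 0.00538) and PCDH1 (-0.66, SE 0.13, adjusted p = 0.00441). The calls of CDH11, CDH2, CDH4, PCDH19 and PCDH1 held in every alternative. CDH22 was lost with only the 2 groups compared (1.15) and without DPP replicate 2 (0.72) or either Mix library (1.26 and 1.03), CDH7 without DPP replicate 2 (1.42) or Mix replicate 2 (1.40), and PCDH18 without either DPP library (0.21 and 0.24) or Mix replicate 1 (0.16).

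The clustered genes higher in Mix than in DPP were 7 gamma, 5 beta and 1 alpha gene. PCDHGA3 had 13.0 and 10.6 CPM in Mix against 5.96 and 5.53 CPM in DPP (log2 fold change 1.03, SE 0.17, adjusted p = 0.00166), and PCDHGA10 had 8.01 and 8.19 CPM in Mix against 5.52 and 4.66 CPM in DPP (0.67, SE 0.13, adjusted p = 0.00394). These 2 calls held in every alternative. Of the others, PCDHGC3 (0.23) was lost without DPP replicate 2 (0.17) or either Mix library (0.26 and 0.21), PCDHB14 (0.39) without DPP replicate 2 (0.38) or Mix replicate 2 (0.36), and PCDHB16 (0.47) without DPP replicate 2 (0.44) or Mix replicate 2 (0.40). PCDHB15 (0.56) was lost without DPP replicate 2 (0.44) or either Mix library (0.54 and 0.57), PCDHGA6 (0.42) without either DPP library (0.41 and 0.42) or Mix replicate 2 (0.33), and PCDHGB1 (0.55) without either DPP library (0.46 and 0.64) or Mix replicate 1 (0.39). PCDHB2 (0.41) was lost without either DPP library (0.43 and 0.39) or Mix replicate 2 (0.34), PCDHA3 (1.75) without any 1 of the 4 libraries compared (1.56 to 1.97), and PCDHGA4 (0.37) in 15 of 18 alternatives. PCDHGA2 (0.89, adjusted p = 0.0119) was lost in 2 of 18 alternatives and PCDHB8 (0.39, adjusted p = 0.0448) in 6 of 18. Over all members the count called was 9 without DPP replicate 2, 10 without Mix replicate 2 and 12 without Mix replicate 1. The median log2 fold change was 0.33 over the clustered members tested, 0.17 over the unclustered ones and -0.01 over all genes tested. The 10 neuron markers, given above, were also higher in Mix than in DPP, with 8 called higher and 1 lower, and their part in this was not tested.

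Against DProP, 10 members were called in Mix, against 6.89% of all genes (4.36% higher, 2.53% lower). CDH11 (0.41, SE 0.07, adjusted p = 0.00601), CDH7 (1.97, SE 0.37, adjusted p = 0.00979), PCDH8 (0.30, SE 0.07, adjusted p = 0.0233), PCDHA1 (2.97, SE 0.59, adjusted p = 0.0214) and PCDHB2 (0.39, SE 0.11, adjusted p = 0.0487) were higher in Mix. CDH2 (-0.32, SE 0.055, adjusted p = 0.00564), CDH4 (-0.42, SE 0.10, adjusted p = 0.0303), PCDH19 (-0.26, SE 0.06, adjusted p = 0.0298), PCDHGC4 (-0.33, SE 0.08, adjusted p = 0.0255) and PCDHGC5 (-0.30, SE 0.08, adjusted p = 0.0383) were lower. Without DProP replicate 1 or Mix replicate 1 the count was 2, without DProP replicate 2 it was 3 and without Mix replicate 2 it was 4. The value without Mix replicate 1 was 0.37 for CDH11, -0.31 for CDH2, -0.29 for CDH4, 0.28 for PCDH8, -0.29 for PCDH19, -0.27 for PCDHGC4 and -0.25 for PCDHGC5, and without DProP replicate 1 it was 1.71 for CDH7 and 3.09 for PCDHA1. The call of PCDHB2 ended in 16 of 18 alternatives, those that leave out any 1 library among them (0.32 to 0.46).

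Against DEP, 7 members were called in Mix, all higher, against 3.86% of all genes (2.85% higher, 1.02% lower). CDH11 was the one whose call held in every alternative, with 65.8 and 62.4 CPM in Mix against 42.5 and 40.1 CPM in DEP (log2 fold change 0.64, SE 0.07, adjusted p = 0.00115). CDH2 was not called between them, with a difference of -0.20 (95% interval -0.32 to -0.08). The others called were PCDH18 (0.29), PCDH8 (0.28), PCDHB14 (0.40), PCDHB2 (0.44), PCDHGA3 (0.95) and PCDHGA4 (0.49), with adjusted p from 0.0123 to 0.0462. Without either DEP library or Mix replicate 1 the count was 1, and without Mix replicate 2 it was 3. With the replicate block it was 4. Without Mix replicate 1, for example, PCDH18 was 0.23, PCDH8 0.26 and PCDHGA3 0.79.

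Among the proteins that cadherins bind inside the cell, the calls against vehicle were all lower. Of 14 tested catenins and junction plaque proteins, 6 were lower in DEP, 9 in DProP, 8 in DPP and 4 in Mix. That is 42.9%, 64.3%, 57.1% and 28.6% of the list, against 13.5%, 17.5%, 19.5% and 10.7% of all genes called lower. With library size alone, which moves all genes up, 2, 5, 6 and 1 were lower and 0, 2, 1 and 1 higher. CTNNB1 (beta-catenin, which links cadherin tails to alpha-catenin and acts in Wnt signalling) had values of -0.49 in DEP, -0.51 in DProP, -0.51 in DPP and -0.43 in Mix (SE 0.06 each, adjusted p = 0.000258, 0.000115, 7.29e-05 and 0.000533), called in every alternative. JUP (plakoglobin, of desmosomes and adherens junctions) had -0.78 in DProP and -1.08 in DPP (SE 0.16 each, adjusted p = 0.00359 and 0.000406), also in every alternative. Its values of -0.60 in DEP and -0.50 in Mix (adjusted p = 0.0189 and 0.0444) were not called with library size alone (-0.45 and -0.36), with the correction for GC content and length (-0.36 and -0.29) or without vehicle replicate 2 (-0.44 and -0.34). The DEP call was lost without either DEP library too (-0.63 and -0.58), and the Mix call without Mix replicate 1 (-0.30) or any 1 of the DEP or DProP libraries (-0.50 each).

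Of 16 tested members of other cadherin subfamilies, 2 were higher and 5 lower in DEP, 4 and 5 in DProP, 3 and 4 in DPP and 3 and 3 in Mix. That is 43.8%, 56.2%, 43.8% and 37.5% of the list called, against 23.6%, 32.2%, 36.2% and 20.4% of all genes. With library size alone it was 5 and 3, 6 and 5, 4 and 3, and 7 and 1. DCHS1, the partner of FAT4 in planar polarity, had log2 fold changes of -0.77 in DProP and -1.04 in DPP (SE 0.08 each, adjusted p = 6.66e-05 and 6.56e-06), -0.44 in DEP (adjusted p = 0.00323, lost with the correction for GC content and length at -0.20) and 0.05 in Mix, not called. CLSTN3 (calsyntenin 3, of synapses) had -0.69, -0.88 and -1.01 for DEP, DProP and DPP (SE 0.11 each, adjusted p = 0.00149, 0.00019 and 5.23e-05), called in every alternative, and 0.32 in Mix, not called. CELSR2 and CLSTN1, at means of 1265 and 350 CPM, were called lower in all 4 treatments. For DEP, DProP, DPP and Mix, CELSR2 had -0.43, -0.49, -0.55 and -0.25 (adjusted p = 0.00168, 0.000427, 0.000165 and 0.0318). CLSTN1 had -0.33, -0.35, -0.31 and -0.32 (adjusted p = 0.00315, 0.00154, 0.00231 and 0.00437). Others were called higher. FAT4 had 0.26 in DProP and 0.42 in Mix (adjusted p = 0.0288 and 0.00435). FAT1 had 0.24 in DProP and 0.32 in DPP (adjusted p = 0.00861 and 0.0015). CELSR1 was higher in DPP (0.38, adjusted p = 0.0018) and lower in Mix (-0.38, adjusted p = 0.00417).

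Of 8 tested repressors of CDH1 transcription, 1 was higher and 3 lower in DEP, 2 and 3 in DProP, 4 and 3 in DPP and 1 and 2 in Mix. The called share of these 8 was 50.0%, 62.5%, 87.5% and 37.5%, against 23.6%, 32.2%, 36.2% and 20.4% of all genes. With library size alone it was 1 and 1, 3 and 1, 4 and 2, and 3 and 0. SNAI1 (Snail) was higher in all 4 treatments, with log2 fold changes of 1.03 in DEP, 0.92 in DProP, 1.66 in DPP and 1.03 in Mix (SE 0.25, 0.25, 0.24 and 0.25, adjusted p = 0.0111, 0.0144, 0.00034 and 0.0126), at a mean of 2.775 CPM. The DPP call held in every alternative. The others were lost without vehicle replicate 1 (0.80 in DEP, 0.69 in DProP and 0.80 in Mix), without DEP replicate 1 in DEP (0.89), without DProP replicate 1 in DProP (0.89) and without Mix replicate 2 in Mix (0.66). SNAI2 (Slug), at a mean of 0.426 CPM, was higher in DPP (2.43, SE 0.46, adjusted p = 0.00162). ZEB1 and TCF4, at means of 381.8 and 597 CPM, were called lower in all 4 treatments. For DEP, DProP, DPP and Mix, ZEB1 had -0.28, -0.30, -0.37 and -0.25 and TCF4 -0.36, -0.42, -0.46 and -0.25. TCF3 was called lower in DEP (-0.20), DProP (-0.24) and DPP (-0.21). Fewer were called lower with library size alone, as counted above.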

How the data were processed

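RNA was measured by sequencing after exome capture (SureSelect RNA Direct), per the labels. The values are raw read counts per gene, as deposited by the authors and not normalised. Per the submitters' processing notes, the tools were Trimmomatic 0.38, FastQC, HISAT2 2.1.0, StringTie 2.1.3b, R 4.3.2 and edgeR 4.0.9, with GRCh38; the sources used here give neither their roles nor the annotation or the handling of shared reads. All 10 libraries were used.

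Counts of all genes were fitted with edgeR 4.0.16 in R 4.3.3 (filterByExpr, TMM factors, robust quasi-likelihood, 1 mean per group), leaving 19465 genes and 5 residual degrees of freedom. Biological variation was 9.4% (common coefficient), and the 95% interval extended by a median of 0.262 on the log2 scale above and below the estimate. The SE is the size of the log2 fold change divided by the square root of F. An exact test of 1 gene with 2 libraries per group cannot pass the threshold of 0.05, so p-values rest on the spread pooled over the groups. The code was tested on simulated data.

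Each result was recomputed with relative log expression factors, with library size alone, without the filter, with a stricter filter (at least 1 CPM in 2 libraries), with DESeq2 1.42.0, with only the 2 groups compared, with the replicate number as a block, with a correction for GC content and length (lowess span 0.3), and leaving out each library, where the library left alone in its group is taken to vary as the others do.

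Members and lists were chosen with earlier results of these data known. Named were unclustered members with a mean of at least 1 CPM or a call, in each cluster up to 4 of highest level and 4 of smallest p, and called members between treatments, up to 6 where more were called; those named beyond this were chosen after their values were seen. Promoters and positions are from RefSeq, exon sharing from GENCODE v29.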

Additional observations from a re-analysis of the deposited data

How the results depend on the processing

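No call of a member changed direction in any alternative, and 30 of 112 such calls held in all of them; 87 held with library size alone, 108 with relative log expression factors, 93 with the correction for GC content and length and 105 with DESeq2, which gave no adjusted p for 3. Library size alone called 26 members in DProP and 21 in Mix against vehicle, where TMM called 16 and 12, and 2 in DProP against DEP, where TMM called 1. For DProP against DEP, no filter gave 2, the stricter filter 4, only the 2 groups compared 4 and DESeq2 7. For DPP against DProP, where 1 was called, the stricter filter gave 2, only the 2 groups compared 0 and DESeq2 7. For DPP against DEP, where 5 were called, only the 2 groups compared gave 3. For Mix against DEP, where 7 were called, it gave 18 and DESeq2 14. With the replicate number as a block, 2 were called in DPP against DEP, 0 in DPP against DProP and 4 in Mix against DEP; the deviations of same-numbered libraries correlated at -0.0465 to 0.0471, so the numbers do not pair the libraries. Leaving out 1 library gave 5 to 15 members in DEP, 11 to 19 in DProP, 14 to 23 in DPP and 4 to 14 in Mix against vehicle, 0 to 3 in DProP and 0 to 6 in DPP against DEP, 0 to 2 in DPP against DProP, and 1 to 9, 2 to 10 and 9 to 22 in Mix against DEP, DProP and DPP. The causes were not tested beyond what the settings themselves change. The alpha genes and the cadherins of low level had wide intervals, which limits what their values show. The part of depth in this was not tested.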

Other observations

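Other genes linked to cadherins moved in both directions. Of 10 tested cadherin sheddases and gamma-secretase subunits, 30.0% were called in DEP, 20.0% in DProP, 50.0% in DPP and 20.0% in Mix, against 23.6%, 32.2%, 36.2% and 20.4% of all genes. MMP14, a membrane metalloprotease, was lower in DPP (log2 fold change -0.50, SE 0.08, adjusted p = 0.000385). It was also called lower in DEP (-0.39, adjusted p = 0.00359) and DProP (-0.35, adjusted p = 0.00494), and in Mix it was 0.01, not called. ADAM17, a sheddase, was called higher in DPP (0.31, SE 0.07, adjusted p = 0.00403) and in no other treatment. Of 20 tested regulators of the protocadherin clusters, 0 were higher and 1 lower in DEP, 1 and 2 in DProP, 3 and 5 in DPP and 1 and 0 in Mix, which is 5.0%, 15.0%, 40.0% and 5.0% of the list, against 23.6%, 32.2%, 36.2% and 20.4% of all genes: near the share of all genes in DPP and below it in the others. With library size alone it was 9 and 0, 10 and 0, 10 and 1, and 8 and 0. CTCF was lower in DPP (-0.25, SE 0.06, adjusted p = 0.00862), a call lost without DPP replicate 2 (-0.24) and with library size alone (-0.09). The DNA methyltransferase DNMT3B was lower in DPP (-0.89, SE 0.15, adjusted p = 0.000686), in every alternative. It was also called lower in DEP (-0.45, adjusted p = 0.0426) and DProP (-0.50, adjusted p = 0.0205), and in Mix it was -0.11, not called. Called higher in DPP were WAPL (0.27, adjusted p = 0.00715), PDS5A (0.20, adjusted p = 0.0259) and RAD21 (0.17, adjusted p = 0.0264). PDS5A was called higher in DProP as well (0.20, adjusted p = 0.0257). Of 14 tested signalling partners of protocadherins, 14.3% were called in DEP, 21.4% in DProP, 35.7% in DPP and 14.3% in Mix, none of these shares above that of all genes. MARCKS, an actin-binding protein of the membrane, was lower in all 4 treatments (-0.86 in DEP, -0.98 in DProP, -0.97 in DPP and -0.74 in Mix, adjusted p = 1.35e-05, 3.86e-06, 2.42e-06 and 2.22e-05), in every alternative.

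PCDHAC1 had 168 counts in vehicle replicate 2, against 9 to 54 counts in the other libraries, so its fold changes against vehicle rest on that library; it was called in no comparison.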
